A study of Danio rerio with 6 samples.

Results

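DNA replication factors other than the MCM helicase subunits were followed in the gonads of juvenile zebrafish that lacked *eif4e1b*. The genes were taken by symbol from a list of 39 genes that cover the licensing of replication origins, their firing, DNA synthesis, nucleotide supply and chromatin assembly behind the fork. The 39 symbols matched 40 gene identifiers out of 32520 in the count tables, because *rrm2* stands for a pair of identifiers. The gonads came from fish labelled tg(ziwi:GFP), *eif4e1b* -/- (3 samples, called mutant here) and from fish labelled tg(ziwi:GFP), *eif4e1b* +/+ (3 samples, WT), and each sample was a pool of 3 gonads. *eif4e1b* encodes an eIF4E paralog of the female germline. Fish of both genotypes carried a transgene in which the germ cell promoter *ziwi* drives GFP, and the gonads were taken from juveniles with high GFP. The study made a pair of frameshift deletions in the third exon of *eif4e1b*, and which of them these fish carried is not given in the sources used here. The ages of the juveniles are likewise not given there.

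DNA replication starts when the origin recognition complex (ORC), Cdc6 and Cdt1 load the MCM helicase onto origins, a step called licensing that geminin blocks by binding Cdt1. The kinase Cdc7 with its activator Dbf4 then allows Cdc45 and the GINS complex to join MCM, after which the polymerases, the PCNA clamp with its loader RFC, and the DNA-binding complex RPA copy the strands. These roles come largely from yeast, frog egg extracts and mammalian cells. In a gonad the same genes serve dividing germ cells and the S phase before meiosis, and growing fish and frog oocytes store replication proteins or their mRNAs for the rapid cleavages after fertilization.

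The samples differed in more than genotype. Total counts were 5539470 to 8233080 in mutant samples and 11771342 to 13362230 in WT samples, so counting error was larger in the mutants, and the scaling factors (TMM, the trimmed mean of M-values) spread from 0.788 to 1.48 in mutants against 0.841 to 0.923 in WT. Values below are normalized read counts (TMM-CPM, reads relative to the library total scaled with these factors), given as mean ± SD with n = 3 samples per genotype. For log2 fold changes, ± gives a standard error (SE). *eif4e1b* (ENSDARG00000014565), the targeted gene, was read at 6.73, 1.4 and 3.2 CPM in mutants 1, 2 and 3, against 126, 103 and 120 CPM in WT samples 1, 2 and 3. It fell by 4.92 ± 0.55 on the log2 scale (edgeR quasi-likelihood test, adjusted p = 0.000601). All 17 measured oocyte marker genes were lower in mutants. They summed to 460, 51.7 and 67.6 CPM in mutants 1, 2 and 3, against 12791 to 16482 CPM in WT. The markers that define an ovary with growing oocytes were thus far below WT in every mutant, with the most reads left in mutant 1. The study described high-GFP mutant gonads as either ovaries shaped much like those of WT or gonads with differentiating sperm. Which kind each pool held is not given in the sources used here. All 22 exocrine pancreas genes were higher in mutants, summing to 38707 to 66062 CPM against 91.7 to 378 CPM in WT, and the liver genes summed to 1023, 237861 and 31257 CPM in mutants 1, 2 and 3 against 403, 171 and 5457 CPM in WT samples 1, 2 and 3.

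Replication factor transcripts were lower in mutant gonads almost throughout the list. Of the 40 genes, 34 fell and 0 were called higher by edgeR's quasi-likelihood test at an adjusted p under 0.05. At an unadjusted p under 0.05 it also gave 0 higher, as did DESeq2 and limma-voom. The calls across all 20091 tested genes were 32.0% lower and 37.5% higher. The median log2 fold change (mutant over WT, as everywhere below) was -1.72 for the replication genes and 0.23 for all tested genes, and 38 of the 40 lay below the median of all genes, the exceptions being *dbf4* and *gins4*. The mutant samples all lay below the WT samples in 35 of the 40 genes, against 35.4% of all genes. The summed level of the 40 genes was 1882, 1048 and 1823 CPM in mutants 1, 2 and 3, against 8261, 8428 and 8783 CPM in WT samples 1, 2 and 3. The WT sums were thus 5.36-fold the mutant sums on average, and 4.06-fold when *gmnn* and *rrm2*, the genes with the steepest falls, were left out. In bulk gonads, fewer cells of a type and less RNA per cell cannot be told apart.

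**Figure D1:**
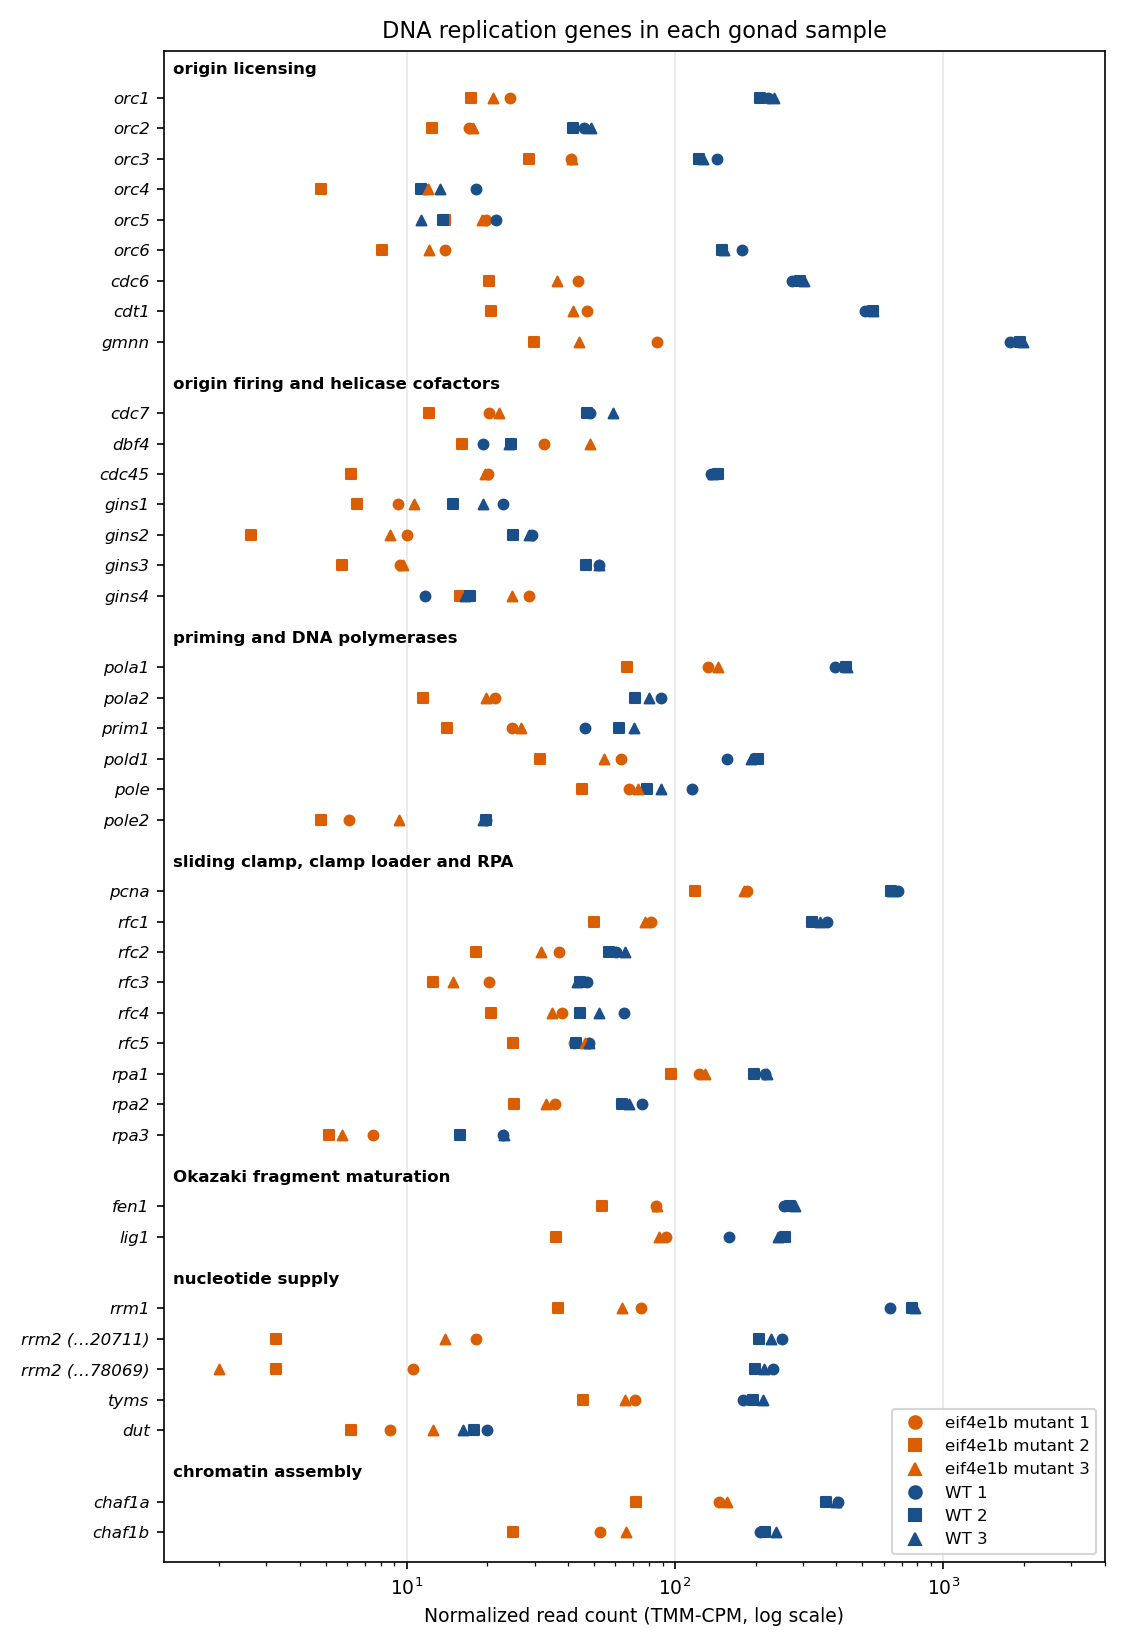
Normalized read count (TMM-CPM, log scale) of each of the 40 replication genes in every sample, grouped by replication step, with mutant samples in orange and WT samples in blue. In 35 of the 40 genes the 3 mutant points lie below the 3 WT points, and mutant 2 is the lowest mutant in 39 of the 40.

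Large falls made up a larger share of these genes than of all tested genes, which is given as a description. A log2 fold change of -1 or less was seen in 31 of 40 replication genes (77.5%) and in 28.2% of all tested genes. At -2 or less the numbers were 14 of 40 (35%) against 12.5%, and at -3 or less 9 of 40 (22.5%) against 5.23%. The number of lower calls depended on the scaling, with 20 when samples were scaled by their total counts alone and 26, with 3 higher, under upper-quartile factors, and the median log2 fold change of all genes was then 0.65 and 0.92. The 14 calls lost with total counts alone were those of *orc2*, *cdc7*, *gins1*, *gins2*, *prim1*, *pole2*, *rfc2*, *rfc3*, *rfc4*, *rpa1*, *rpa2*, *lig1*, *dut* and *chaf1a*, and the 8 lost with upper-quartile factors were those of *gins1*, *prim1*, *rfc2*, *rfc4*, *rpa1*, *rpa2*, *lig1* and *dut*. The log2 fold changes of all these genes stayed negative. Of all calls across the tested genes, 46.1% were lower with TMM factors, 31.2% with total counts alone and 28.9% with upper-quartile factors.

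The mutant samples were more spread than the WT samples. The coefficient of variation had a median of 30.0% over the 40 genes in mutants (14.7 to 87.5%) and of 8.30% in WT (1.24 to 34.7%). Mutant 2, which also had the highest summed level of liver genes, was the lowest mutant for 39 of the 40 genes, the exception being *rrm2* ENSDARG00000078069. The highest mutant was mutant 1 for 23 genes and mutant 3 for 17. Without mutant 2, 34 genes were lower and 2 were higher (*dbf4* and *gins4*).

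Origin licensing had the widest gap in summed level. Of its 9 genes 7 fell, and their summed level was 235 ± 74.7 CPM in mutants and 3313 ± 117 CPM in WT, a 14.1-fold gap. In that WT sum *gmnn* alone held 1900 ± 108 CPM, so the size of the gap rests in good part on this gene. By median log2 fold change, nucleotide supply (-3.64) fell deeper than origin licensing (-3.11). *gmnn* encodes geminin, the inhibitor of Cdt1. It had 85.8, 29.8 and 43.9 CPM in mutants 1, 2 and 3, against 1780, 1932 and 1989 CPM in WT samples 1, 2 and 3. Every mutant lay far below every WT sample, with a log2 fold change of -5.16 ± 0.52 (SE, adjusted p = 0.00046).

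*cdt1*, the loader that geminin holds back, had 47.0, 20.6 and 41.9 CPM in mutants against 513, 547 and 548 CPM in WT. The WT samples agreed within 20.1 CPM (SD) and stood far above all mutants, and *cdt1* fell by 3.87 ± 0.37 on the log2 scale (adjusted p = 0.000409). *cdc6*, the ATPase that works with ORC in loading, had 43.5, 20.3 and 36.3 CPM in mutants against 272, 291 and 304 CPM in WT, and a log2 fold change of -3.11 ± 0.32 (adjusted p = 0.00048).

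The 6 ORC subunits did not move together. *orc1*, whose protein binds and leaves ORC in a cell-cycle-dependent way in mammalian cells, had 24.4, 17.4 and 21.1 CPM in mutants against 222, 207 and 235 CPM in WT (log2 fold change -3.40 ± 0.21, adjusted p = 0.000286). *orc6*, the smallest subunit, had 14.0, 8.07 and 12.1 CPM in mutants against 178, 150 and 153 CPM in WT (log2 fold change -3.81 ± 0.26, adjusted p = 0.000286). Both genes were clear of overlap by a wide margin. *orc2* and *orc3*, which belong to the core of the complex, fell less, with mutant means of 15.8 ± 2.92 and 36.9 ± 7.26 CPM against WT means of 45.5 ± 3.55 and 131 ± 10.5 CPM (log2 fold changes -1.53 and -1.83).

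*orc4* and *orc5*, the remaining core ATPase subunits, did not pass the test. *orc4* had 11.8, 4.81 and 12.0 CPM in mutants against 18.2, 11.3 and 13.3 CPM in WT (log2 fold change -0.58 ± 0.40, adjusted p = 0.23). *orc5* had 19.8, 14.0 and 19.1 CPM in mutants against 21.6, 13.6 and 11.3 CPM in WT (log2 fold change 0.18 ± 0.31, adjusted p = 0.611). The groups overlapped for both genes, and the p-values do not show that the levels were equal. The log2 fold changes of the 6 subunits thus spanned 4.0, and *orc1* and *orc6* made up 18.8% and 10.1% of the ORC reads in mutants against 37.7% and 27.2% in WT.

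**Figure D2:**
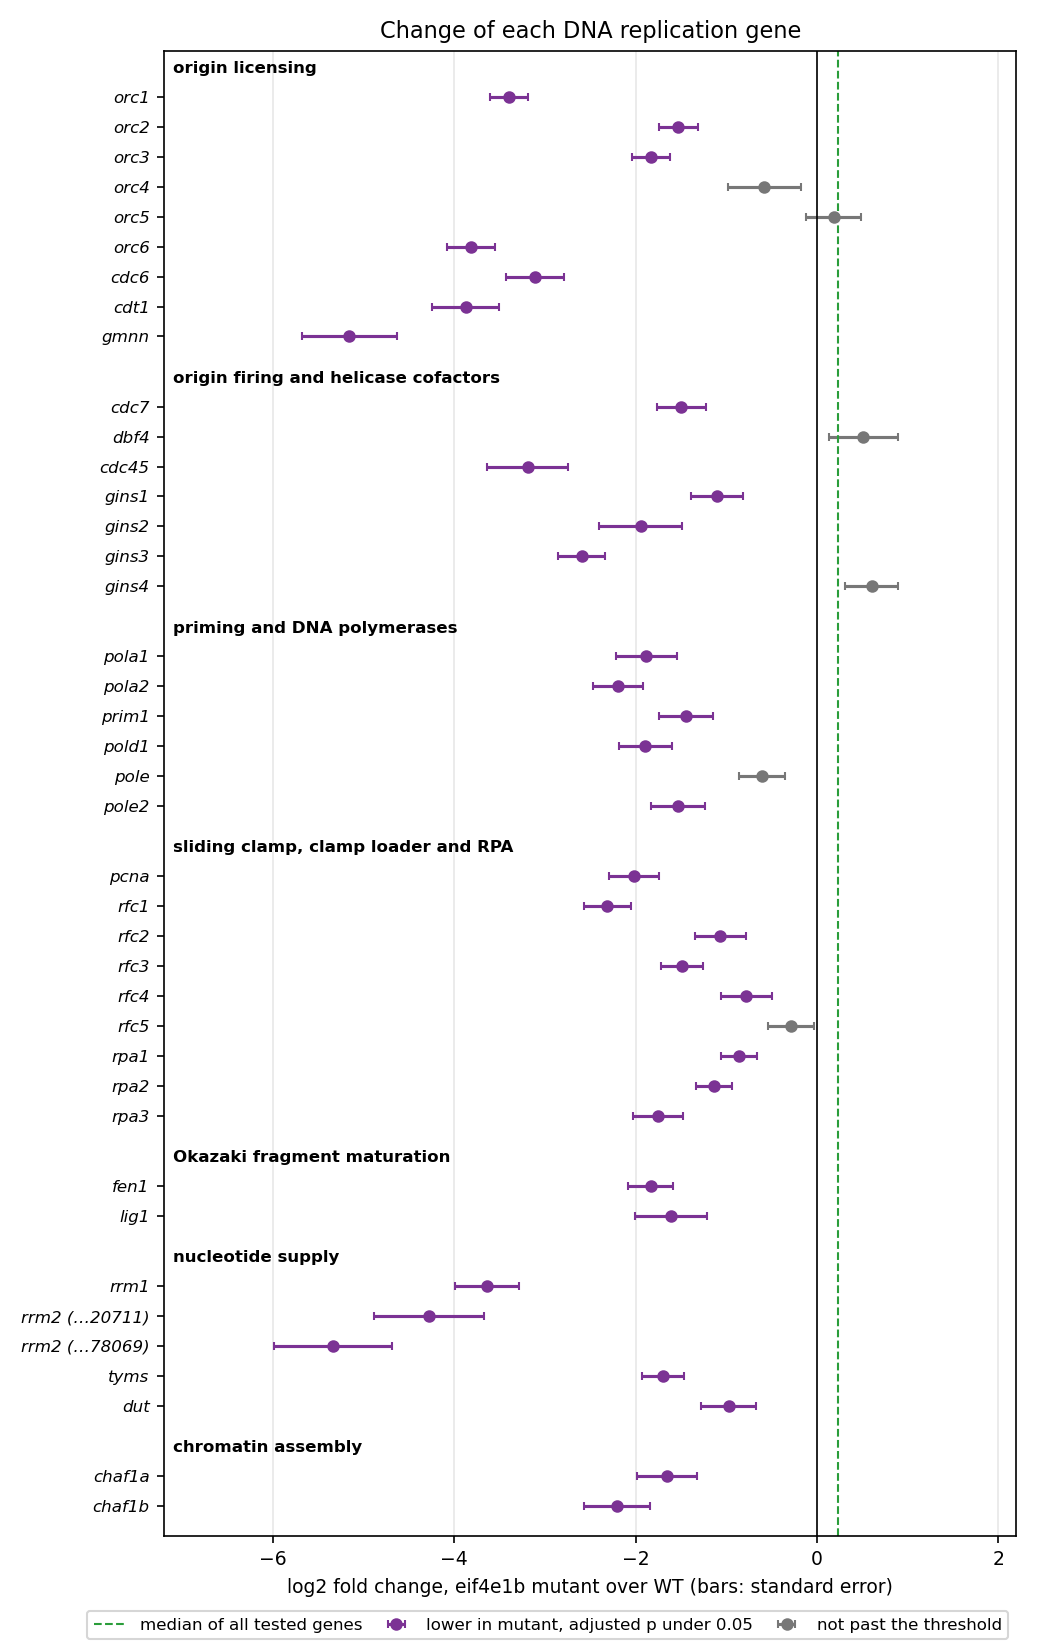
Log2 fold change (mutant over WT) of each of the 40 replication genes with its standard error as bars, by replication step, with genes past the adjusted p threshold in purple and the median of all tested genes (0.23) as a dashed line. The deepest falls were those of *rrm2*, *gmnn*, *cdt1* and *orc6*, and *orc5*, *dbf4* and *gins4* lie right of 0 without passing the test, while upper-quartile factors also put *orc4*, *pole* and *rfc5* right of 0.

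In the firing step, *cdc45*, *cdc7* and *gins1* to *gins3* were lower, while *dbf4* and *gins4* did not pass the test. Of 7 genes 5 thus fell, and the summed level was 113 ± 42.0 CPM in mutants and 326 ± 10.8 CPM in WT. *cdc45*, which joins MCM and GINS in the active helicase, had 20.1, 6.21 and 19.6 CPM in mutants against 137, 144 and 139 CPM in WT. The WT values were close together, all mutants lay far below, and the log2 fold change was -3.19 ± 0.45 (adjusted p = 0.00128).

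*cdc7*, the catalytic subunit of the kinase that triggers firing, had 20.3, 12.1 and 22.1 CPM in mutants against 48.1, 47.0 and 59.0 CPM in WT and fell by 1.5 ± 0.27 on the log2 scale (adjusted p = 0.00316), but not past the threshold with total counts alone (-0.99, adjusted p = 0.086). *dbf4*, which encodes an activator of this kinase, had 32.6, 16.1 and 48.2 CPM in mutants against 19.3, 24.5 and 24.1 CPM in WT. Mutants 1 and 3 lay above every WT sample and mutant 2 below them, and the difference did not pass the test (log2 fold change 0.51 ± 0.39, adjusted p = 0.267). Without mutant 2 it did, at a log2 fold change of 0.83 (adjusted p = 0.0225), whereas without mutant 3 the log2 fold change was -0.0322 (adjusted p = 0.949), so the direction rested on which mutant was left out.

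The 4 GINS subunits, which form a ring-shaped helicase cofactor, spanned 3.2 in log2 fold change. *gins3* had 9.43, 5.74 and 9.74 CPM in mutants against 52.1, 46.7 and 52.3 CPM in WT (log2 fold change -2.60 ± 0.26, adjusted p = 0.000429). *gins2* and *gins1* fell as well, with mutant means of 7.12 ± 3.94 and 8.83 ± 2.12 CPM against WT means of 27.6 ± 2.38 and 19.0 ± 4.03 CPM, and log2 fold changes of -1.95 and -1.1. The call of *gins2* was lost with total counts alone (adjusted p = 0.08), and that of *gins1* there (-0.62, adjusted p = 0.262) and with upper-quartile factors (-0.41, adjusted p = 0.236). *gins2* was counted in only 17 reads in mutant 2. *gins4* had 28.7, 15.8 and 24.7 CPM in mutants against 11.7, 17.2 and 16.5 CPM in WT, where mutants 1 and 3 were above every WT sample and mutant 2 lay within the WT range. Its log2 fold change of 0.61 ± 0.29 did not pass the test (adjusted p = 0.102), but did without mutant 2 (0.83, adjusted p = 0.038). *gins4* reads made up 49.1% of all GINS reads in mutants against 13.6% in WT.

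Genes for priming and for the replicative polymerases fell in 5 of 6 cases, with a summed level of 272 ± 86.0 CPM in mutants and 860 ± 34.6 CPM in WT. *pola1*, the catalytic subunit of the polymerase alpha that extends RNA primers, had 133, 66.3 and 145 CPM in mutants against 394, 435 and 438 CPM in WT (log2 fold change -1.88 ± 0.34, adjusted p = 0.003). *pola2*, its accessory subunit, averaged 17.5 ± 5.28 CPM in mutants and 80.1 ± 8.98 CPM in WT (log2 fold change -2.19). *prim1*, the primase subunit that makes the RNA primer, averaged 21.8 ± 6.76 CPM in mutants and 59.5 ± 12.1 CPM in WT (log2 fold change -1.44), and its call was lost with total counts alone (-0.94, adjusted p = 0.114) and with upper-quartile factors (-0.75, adjusted p = 0.0512). The mutant samples lay below all WT samples for each of these genes.

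*pold1*, the catalytic subunit of the mainly lagging-strand polymerase delta, had 62.8, 31.5 and 54.4 CPM in mutants against 157, 203 and 192 CPM in WT (log2 fold change -1.89 ± 0.29, adjusted p = 0.00186). For the leading-strand polymerase epsilon, the catalytic *pole* had 67.6, 45.1 and 73.1 CPM in mutants against 116, 79.0 and 88.6 CPM in WT. The mutants of *pole* were all below WT, yet its log2 fold change of -0.61 ± 0.25 missed the threshold (adjusted p = 0.0673). It passed with DESeq2 (-0.75, adjusted p = 0.0413) and without mutant 3 (-0.87, adjusted p = 0.0474). Its partner *pole2* fell by 1.53 ± 0.29, averaging 6.76 ± 2.33 CPM in mutants and 19.6 ± 0.243 CPM in WT.

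The clamp, its loader and RPA fell in 8 of 9 cases, to 499.6 ± 110.6 CPM in mutants against 1507 ± 77.7 CPM in WT. *pcna*, the sliding clamp that tethers polymerases to DNA, had 186, 119 and 181 CPM in mutants against 680, 638 and 645 CPM in WT. All mutants were far below all WT samples, with a log2 fold change of -2.01 ± 0.27 (adjusted p = 0.00118). *rfc1*, the large subunit of the loader that places PCNA at primers, had 81.4, 49.8 and 77.6 CPM in mutants against 368, 323 and 349 CPM in WT (log2 fold change -2.32 ± 0.26, adjusted p = 0.00062).

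The small loader subunits are shared with other RFC-like complexes in yeast and mammals, whereas Rfc1 belongs to the replicative loader. *rfc3* and *rfc2* fell by 1.49 and 1.07 on the log2 scale, with means of 15.9 ± 3.98 and 29.0 ± 9.77 CPM in mutants against 44.8 ± 1.94 and 60.8 ± 4.22 CPM in WT. *rfc4* had 38.1, 20.6 and 35.0 CPM in mutants against 64.5, 44.1 and 52.3 CPM in WT, with the highest mutant just under the lowest WT sample. Its log2 fold change of -0.78 ± 0.28 passed narrowly (adjusted p = 0.0425). Among the fits that left out a sample, the call was lost without mutant 3 (-0.99), without WT 1 (-0.67) or without WT 3 (-0.85). Total counts alone and upper-quartile factors also lost the calls of *rfc4* and *rfc2*, and total counts alone that of *rfc3*. *rfc5* had 42.2, 25.0 and 46.2 CPM in mutants against 47.8, 42.9 and 47.7 CPM in WT. The groups overlapped, and its log2 fold change of -0.29 ± 0.26 did not pass (adjusted p = 0.345).

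RPA, which coats single-stranded DNA at forks and at repair sites, was lower in each of its subunits. *rpa1*, the large DNA-binding subunit, had 123, 97.0 and 129 CPM in mutants against 216, 198 and 220 CPM in WT (log2 fold change -0.86 ± 0.20, adjusted p = 0.00795). *rpa2* averaged 31.4 ± 5.57 CPM in mutants and 68.9 ± 6.19 CPM in WT, and *rpa3* 6.11 ± 1.22 CPM in mutants and 20.6 ± 4.12 CPM in WT, with log2 fold changes of -1.13 and -1.75. The calls of *rpa1* and *rpa2* were lost with total counts alone and with upper-quartile factors. The 3 subunits spanned 0.89 in log2 fold change, the narrowest range among the 4 complexes examined (ORC, GINS, RFC and RPA). RPA also has the fewest subunits of these, and a range tends to widen with the number of subunits.

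Okazaki fragment maturation, the joining of the short pieces of the lagging strand, was covered by a pair of genes, and both fell. *fen1*, the flap endonuclease, had 85.3, 53.7 and 85.5 CPM in mutants against 255, 268 and 279 CPM in WT (log2 fold change -1.84 ± 0.25, adjusted p = 0.00111). *lig1*, the DNA ligase that seals the nicks, had 92.3, 36.0 and 87.6 CPM in mutants against 159, 256 and 243 CPM in WT (log2 fold change -1.61 ± 0.40, adjusted p = 0.0108). WT 1 was the lowest WT sample for *lig1* and still above every mutant. The call of *lig1* was lost with total counts alone and with upper-quartile factors.

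Nucleotide supply followed, with a summed level of 145 ± 45.5 CPM in mutants and 1386 ± 71.1 CPM in WT, a 9.55-fold gap over its 5 rows. *rrm1* encodes the large subunit of ribonucleotide reductase, which makes deoxyribonucleotides, and had 74.9, 36.6 and 63.5 CPM in mutants against 632, 766 and 784 CPM in WT (log2 fold change -3.64 ± 0.36, adjusted p = 0.000424). *rrm2* encodes the small subunit, whose level follows S phase in mammalian cells. Its row ENSDARG00000020711 had 18.1, 3.26 and 13.9 CPM in mutants against 252, 207 and 229 CPM in WT (log2 fold change -4.28 ± 0.61, adjusted p = 0.00134). Its row ENSDARG00000078069 had 10.5, 3.26 and 2.00 CPM in mutants against 231, 199 and 214 CPM in WT (log2 fold change -5.34 ± 0.65, adjusted p = 0.000806), and -6.39 without mutant 1, the mutant with the most reads there. How the counting divided reads between these rows is not given in the sources used here, so their separate values are uncertain.

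*tyms*, the thymidylate synthase that makes the DNA-specific nucleotide, had 71.1, 45.5 and 65.4 CPM in mutants against 180, 196 and 214 CPM in WT (log2 fold change -1.70 ± 0.23, adjusted p = 0.00115). *dut*, the dUTPase that keeps uracil out of DNA, had 8.69, 6.21 and 12.5 CPM in mutants against 20.0, 17.9 and 16.2 CPM in WT. The groups of *dut* stood apart by a small margin (log2 fold change -0.97 ± 0.30, adjusted p = 0.0252). Its call was lost without mutant 1 (-0.97) or without WT 2 (-1.035), and also with total counts alone and with upper-quartile factors.

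The CAF-1 subunits, which deposit new histones behind the fork, fell too. *chaf1a* had 146, 71.8 and 156 CPM in mutants against 407, 367 and 399 CPM in WT (log2 fold change -1.65 ± 0.33, adjusted p = 0.00468). *chaf1b* had 52.8, 25.0 and 65.9 CPM in mutants against 208, 217 and 238 CPM in WT (log2 fold change -2.21 ± 0.36, adjusted p = 0.00229). Mutant 2 was the lowest sample for both genes, and no mutant reached the WT range.

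**Figure D3:**
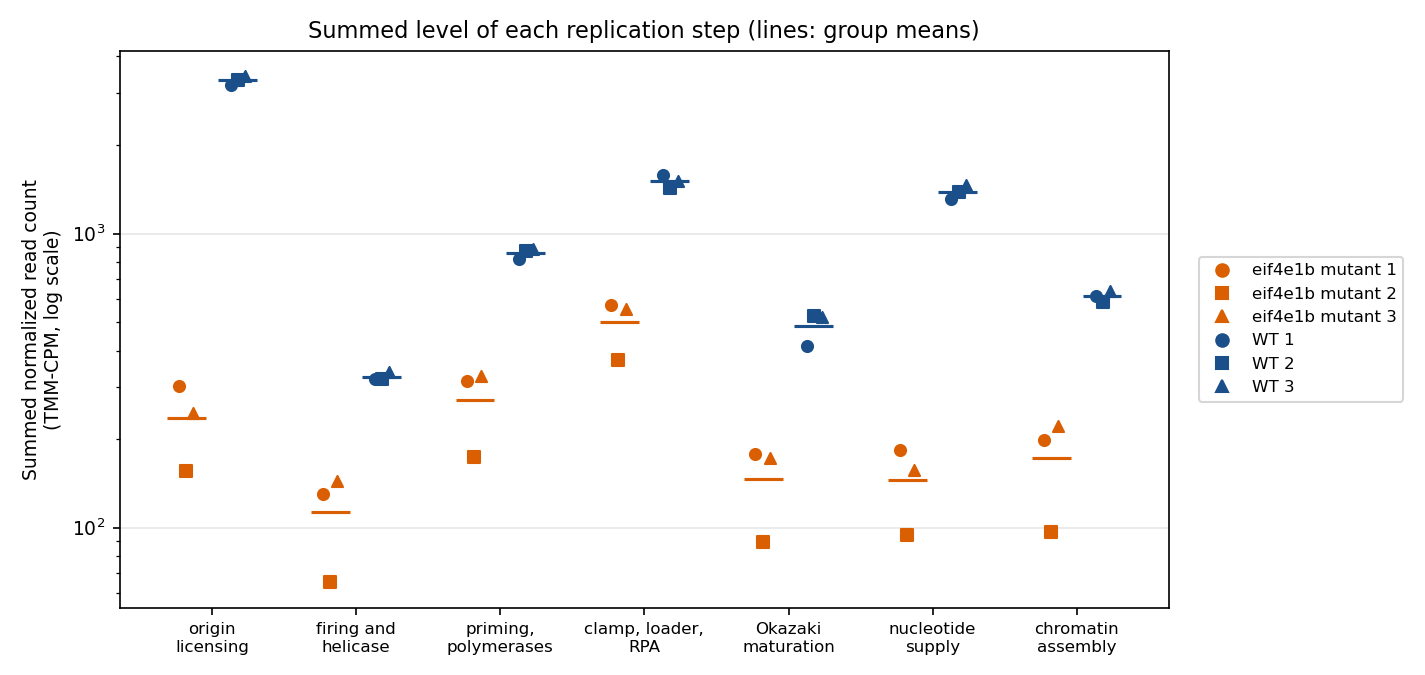
Summed normalized read count (TMM-CPM, log scale) of the genes of each replication step in each sample, with mutant samples in orange, WT samples in blue and lines at the group means. The gap between the groups is widest for origin licensing (14.1-fold) and nucleotide supply (9.55-fold) and lies between 2.88-fold and 3.55-fold in the other 5 steps. Of the origin licensing sum in WT, *gmnn* alone held 1900 CPM on average.

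Ratios of raw counts within a sample do not depend on the scaling between samples. They were computed as a description for 11 pairs chosen after the values were seen, with the gene that fell more on top. Of these, 8 are given by sample. *gmnn* over *cdt1* reads was 1.83, 1.44 and 1.05 in mutants 1, 2 and 3, against 3.47, 3.53 and 3.63 in WT samples 1, 2 and 3, so the reads of the inhibitor fell more than those of the loader it binds. *orc1* over *orc5* was 1.23, 1.24 and 1.1 in mutants against 10.3, 15.2 and 20.7 in WT, and *orc6* over *orc4* was 1.19, 1.68 and 1.01 in mutants against 9.80, 13.2 and 11.5 in WT. The ORC transcripts therefore stood in other proportions in the mutant gonads, whichever scaling is used.

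The same held in the helicase and polymerase genes. *gins3* over *gins4* was 0.329, 0.363 and 0.395 in mutants against 4.45, 2.71 and 3.16 in WT, and *cdc7* over *dbf4* was 0.624, 0.750 and 0.460 in mutants against 2.50, 1.92 and 2.44 in WT. For both pairs every mutant ratio was below every WT ratio by a wide margin. The *dbf4* reads do not include those of *dbf4b*, which was lower in mutants. *rfc1* over *rfc5* was 1.93, 1.99 and 1.68 in mutants against 7.70, 7.53 and 7.31 in WT, *pole2* over *pole* 0.0906, 0.107 and 0.128 against 0.171, 0.250 and 0.218, and *rrm2* (both rows) over *rrm1* 0.382, 0.178 and 0.250 against 0.764, 0.530 and 0.566. In all 11 pairs the mutant values lay below the WT values.

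**Figure D4:**
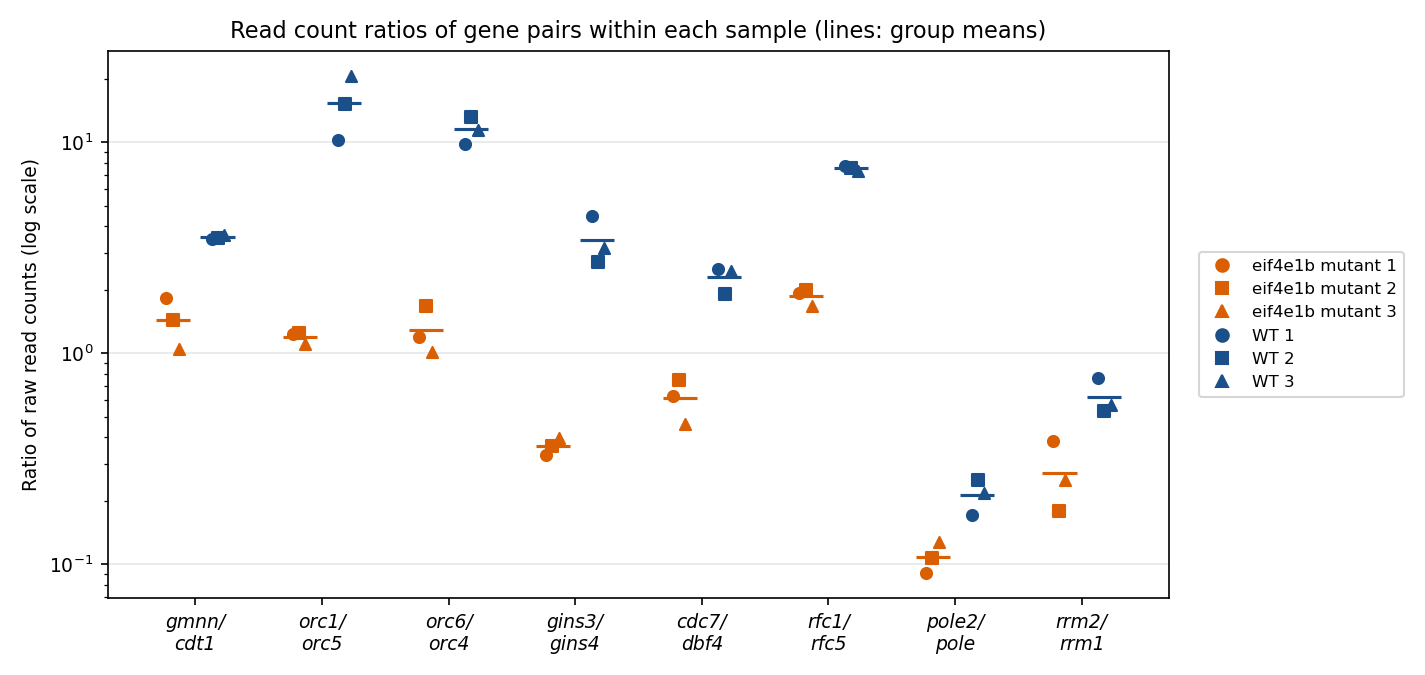
Ratio of raw counts of a gene pair within each sample (log scale) for 8 pairs of replication genes, with mutant samples in orange and WT samples in blue. The mutant values lie below the WT values in every pair, a direction set by putting the gene that fell more on top. Among these 8 pairs the gap is widest for *orc1* over *orc5* and narrowest for *pole2* over *pole*.

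Other genes of the same pathways, taken as lists, were mostly lower as well. Of 27 further fork and initiation genes 24 were lower and 1 was higher (median log2 fold change -1.90), with *mcm10*, a helicase activator, at -2.94, *mtbp* at -3.02 and the polymerase delta subunit *pold3* at -2.68. The exception was *pold4*, the small subunit of polymerase delta, at 31.7 ± 10.1 CPM in mutants and 7.43 ± 3.42 CPM in WT (log2 fold change 2.09, adjusted p = 0.00471). Of 14 further nucleotide supply genes 9 were lower and 0 higher (median -1.4), among them *umps* at -2.24, *samhd1* at -1.90 and *dtymk* at -2.15. All 7 measured histone chaperone genes were lower (median -1.89), led in size by *nasp*, a carrier of soluble histones, at 199 ± 103 CPM in mutants and 6465 ± 416 CPM in WT.

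The MCM rows, which hold the helicase that these factors load and activate, were split. Of 7 rows for 6 symbols 5 were lower and 2 higher, with *mcm6* represented by ENSDARG00000033231 at -4.57 (adjusted p = 0.00048) and by ENSDARG00000057683 at 3.44 (adjusted p = 0.00808), and *mcm3* at 3.22 (adjusted p = 0.0185). The replication genes summed to 1.51, 1.5 and 1.49 times the MCM reads in mutants 1, 2 and 3, against 3.21, 3.34 and 3.33 times in WT samples 1, 2 and 3. The MCM list was taken by the symbols *mcm2* to *mcm7*, so any MCM paralog under another symbol is not in these reads. These MCM reads include the 2 higher rows. Of those, *mcm3* was at 162 ± 51.6 CPM in mutants and 17.4 ± 21.3 CPM in WT. The other, *mcm6* ENSDARG00000057683, was at 275 ± 80.1 CPM in mutants and 25.3 ± 26.7 CPM in WT. The replication sum includes *gmnn* and *rrm2*, so these ratios do not set the other replication genes against the MCM rows that fell.

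E2F and RB family genes and their partners were listed with E and A cyclins, *cdk2*, *skp2* and cyclin-dependent kinase inhibitors. This list for the control of S phase went both ways, with 13 of 26 lower, 6 higher and 7 not called. The shares over all tested genes were 32.0% lower and 37.5% higher. *ccne1*, a cyclin E, was at 16.7 ± 8.13 CPM in mutants and 549 ± 6.88 CPM in WT, and *skp2* and *ccna2* had log2 fold changes of -3.25 and -4.54. The cyclin E gene *ccne2* had a log2 fold change of 1.08 and did not pass the test (adjusted p = 0.0587). *rbl2*, *cdkn1ba* and *e2f1* were higher, at 3.65, 3.29 and 2.96, but were weakly read in WT. Their means were 21.9 ± 4.90, 30.6 ± 2.90 and 6.35 ± 1.17 CPM in mutants against 1.74 ± 0.461, 3.11 ± 1.11 and 0.802 ± 0.303 CPM in WT. The paralog of *cdkn1ba*, *cdkn1bb*, went the other way, at 17.6 ± 5.27 CPM in mutants and 45.3 ± 2.22 CPM in WT. Its log2 fold change was -1.36 (adjusted p = 0.00405). Of 22 mitosis genes 21 were lower and 0 higher, with a median of -3.11 that was deeper than that of the replication list. The replication genes summed to 1.06, 1.63 and 1.03 times the mitosis reads in mutants against 0.784, 0.771 and 0.797 times in WT.

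Markers of germ cells and of other cell types differed between the genotypes alongside the replication genes, and their part in the result was not tested. The oocyte list had a median of -6.09 over 17 genes, and the replication genes summed to 4.09, 20.3 and 27.0 times its reads in mutants 1, 2 and 3, against 0.501, 0.659 and 0.590 times in WT samples 1, 2 and 3. Of its genes, *h1m*, a histone H1 of the egg, had 98.2, 4.19 and 2.54 CPM in mutants against 3855, 2926 and 3552 CPM in WT. Markers of germ cells of either sex summed to 4342, 1895 and 4224 CPM in mutants against 3842, 2843 and 3045 CPM in WT, and the sums overlapped. Of these 14 genes 5 were lower and 2 higher, while 32.0% of all tested genes were lower and 37.5% higher. Relative to these germ cell reads, the replication genes summed to 0.434, 0.553 and 0.432 in mutants against 2.15, 2.97 and 2.88 in WT. Per germ cell marker read, mutant 2 was thus the highest of the mutants, although it was the lowest in CPM. Of the germ cell reads, *piwil1* held 1159 ± 469 CPM in mutants and 512 ± 208 CPM in WT, and was not called. The gonads were chosen for high GFP from a germ cell promoter, so the germ cell level was not free of that choice.

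Meiotic prophase genes, read in the cells that have left S phase for meiosis, were higher for 8 of 15 and lower for 1. Over all tested genes, 37.5% were higher and 32.0% lower. The meiotic prophase sums were 1214, 461 and 1896 CPM in mutants against 492, 152 and 170 CPM in WT. Testis somatic markers were higher for 8 of 9, at 1829, 1156 and 1518 CPM in mutants against 316, 30.7 and 35.5 CPM in WT. The most abundant were *gsdf*, at 803 ± 184 CPM in mutants and 77.7 ± 110 CPM in WT, and *amh*, at 452 ± 84.4 and 20.4 ± 31.6 CPM. Which cells these reads came from was not tested. Of 5 tested ovarian somatic markers 3 were higher (*lhcgr*, *fshr* and *runx1*), 0 lower and 2 not called (median log2 fold change 2.17). The uncalled *rspo1* and *hsd17b1* had log2 fold changes of 0.62 and -3.08. This list was weakly read, summing to 31.76 ± 1.73 CPM in mutants and 16.03 ± 3.36 CPM in WT. Only 6 of its 10 symbols matched, so it does not show whether ovarian somatic cells made up more or less of the mutant samples. WT 1 stood above the other WT samples in the meiotic prophase and testis lists. When mutants 1 and 3 were set against WT 2 and 3 alone, a choice made after seeing these values, 33 genes were lower and 3 higher, the higher ones being *orc5* (0.63), *dbf4* (0.71) and *gins4* (0.66). All 11 fibroblast and all 9 skeletal muscle genes were higher in mutants, and scaling factors computed without the pancreas, liver, muscle and skin genes gave 35 lower calls and 0 higher.

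**Figure D5:**
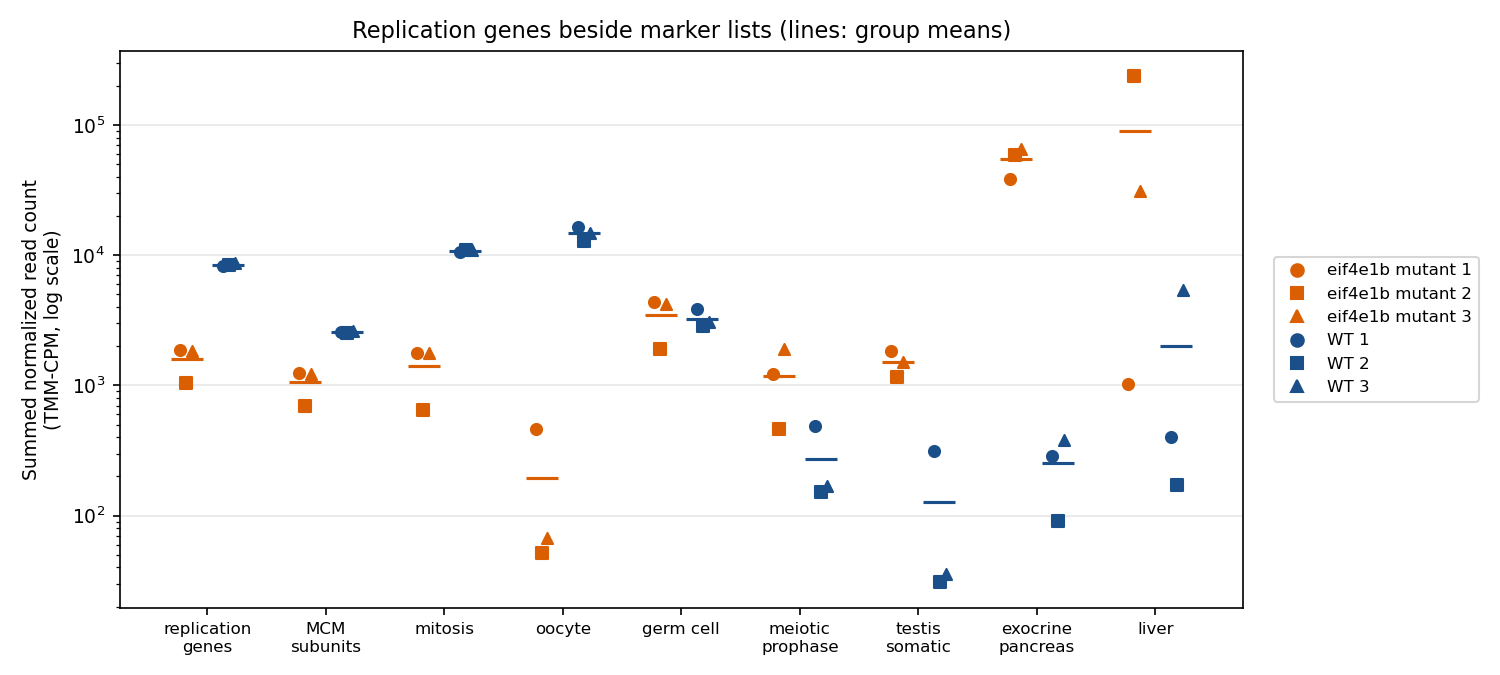
Summed normalized read count (TMM-CPM, log scale) of marker lists in each sample, with mutant samples in orange and WT samples in blue. Oocyte markers are lower in every mutant (51.7 to 460 CPM against 12791 to 16482 CPM in WT), germ cell markers of either sex overlap between the genotypes, and pancreas markers are higher in every mutant.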

How the data were processed

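RNA of juvenile gonads was purified with a column kit, depleted of ribosomal RNA, made into stranded libraries and sequenced by the authors. The deposited files hold raw counts of reads per gene for 32520 Ensembl genes in each of 6 samples, without normalization. The submitters' processing notes name GRCz11, Trim Galore 0.5.0, Bowtie2 2.3.4.1, featureCounts, Subread 1.6.2, DESeq2 1.18.1 and R 3.4.1. Their settings, which annotation was counted, whether strand was used and how reads with several matches were handled are not given in the sources used here. Libraries depleted of ribosomal RNA and not selected for poly(A) count transcripts whatever the length of their tails.

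Symbols came from a table of gene names (29201 identifiers) and from the study's supplementary tables (5034), and 29384 identifiers had one from either. Each file was taken for the sample it was deposited with, and groups came from the genotype labels. Replicates differed by more than sampling noise (chi-square per degree of freedom 11.5 to 168). Nothing in the labels says that the pools of a genotype came from separate crosses, so p-values measure the spread between these samples. A two-sided quasi-likelihood test (edgeR 4.0.16, R 4.3.3) with TMM factors compared mutant with WT over the 20091 genes kept by edgeR's filter (minimum count 10, minimum total 15), with Benjamini-Hochberg adjustment over all of them and a threshold of 0.05. The SE of a log2 fold change was derived from this test, as the size of the fold change over the square root of the F statistic. All 40 replication genes were kept, with 15 to 22984 counts in any sample. The procedure was tested on simulated data with 200 changed genes of random direction and no other difference in composition. Far more genes were called in the real data, so that test does not bear on the choice of scaling. Counts were not divided by transcript length, so levels are compared between samples and not between genes.

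Every replication gene is named. Of each pathway list, up to 3 called genes in each direction with the smallest p and no overlap between the genotypes could be named. In addition, *ccne2* is given beside *ccne1*, *dbf4b* beside *dbf4* and *cdkn1bb* beside *cdkn1ba*. The members and the lists were chosen with earlier results of these data known, so no p is given for a list. Alternatives were DESeq2 1.42.0, limma-voom (limma 3.58.1), 4 other scalings, other filters on low counts, a replicate block, a minimum fold change and leaving out each sample. Proteome, immunoprecipitation and embryo data were not analysed here.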

Additional observations from a re-analysis of the deposited data

How the results depend on the processing

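Of the 34 replication genes called lower, 20 were also lower in each of the 17 alternatives that refit the data and tested them. The *rrm2* row ENSDARG00000078069, among these 20, had no test of its own in the alternative that summed the *rrm2* rows. Scaling by total counts gave 20 lower calls (all genes: 3740 lower) and upper-quartile factors gave 26 (all genes: 4001 lower) and 3 higher, namely *orc5* (0.87), *dbf4* (1.2) and *gins4* (1.3), and the cause was not tested. Upper-quartile factors turned the log2 fold change of *orc4* to 0.11, of *pole* to 0.0806 and of *rfc5* to 0.40, and total counts turned that of *rfc5* to 0.22. Other tests, filters and scalings gave 33 to 35 lower and 0 higher, and a minimum log2 fold change of 1 gave 31. Leaving out each sample gave 33 to 34 lower and 0 to 2 higher. *orc5* ranged from -0.0518 (without WT 3) to 0.458 (without WT 1), with -0.00554 without mutant 3, and *dbf4* from -0.0322 (without mutant 3) to 0.835 (without mutant 2). Mutants 1 and 3 against WT 2 and 3, chosen after seeing the data, gave 33 lower and 3 higher. With the *rrm2* rows summed, also chosen after seeing the data, 33 of 39 genes were lower.

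The replicate block gave 34 lower and 0 higher and changed no member's call. Deviations from the group means of same-numbered samples correlated at 0.12, -0.20 and -0.05, and not every sample correlated best with its own number, so the numbers were not taken to pair the samples.

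Lower depth in mutants (15 counts at the least) limits the weakly read genes, and intervals of counting error are not given because replicates differed by far more.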
